A study of Caenorhabditis elegans with 44 samples.

Results

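The 47 microRNA strands described here carry numbers above 4800, the latest names that microRNAs of *Caenorhabditis elegans* have been given. The rule used name and level: every row called miR-N with N above 4800, with any letter or strand suffix, was taken if its mean raw count over all libraries was at least 5. miR-5592 was left out by name, so the counts of rises and falls below do not include it. The rule was set with earlier results of these data known. The count table listed 437 strands in all, and 123 of them had such a number. The 47 that reached the minimum came from 39 hairpins, while 76 did not reach it and 15 of those had no count in any library. Just inside the limit lay miR-8201-3p (mean raw count 5.07), miR-8199-5p (5.07), miR-8192-5p (5.68) and miR-8186-3p (5.95), and just outside it lay miR-4812-3p (4.73), miR-5553-5p (4.48), miR-4922 (4.25) and miR-8206-5p (4.07). The strands miR-8199-5p, miR-8192-5p and miR-8201-3p passed the minimum only through hours in which they were high.

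The animals were wild-type worms (N2, the standard laboratory strain) grown at 25 °C, and their small RNAs were sequenced. Larvae that had hatched without food were plated on food, and 1 library was made from pooled animals at each hour between 5 h and 48 h, which covers larval growth and the first hours of adulthood. The 44 libraries therefore had no replicates. Except in the permutation test of strand ratios, each p-value below measures the scatter of hourly libraries around a fitted curve or a block mean. All come from a single time course, and hours are not replicates of a stage. Because whole animals were used, more cells of a type and more RNA per cell cannot be told apart.

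A microRNA is cut from a hairpin precursor as a duplex with a 5p and a 3p strand. An Argonaute protein usually keeps one of them, the guide, and the other, the passenger, is mostly lost. Most hairpins are cut out by the nuclease Drosha, but mirtrons bypass it: the spliced intron is itself the hairpin. Larval development of *C. elegans* is divided by molts, and many transcripts rise and fall once per molting cycle. At 25 °C a cycle takes about 7 h. MicroRNAs named late are generally those that needed deep sequencing to be found, and for most of them no function is given here.

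Libraries held a median of 10678292 counts and at most 14672735. That of 38 h held just 1669246, against 7059421 in the next smallest. Levels are given as normalised counts, that is, raw counts scaled to the mean library total. At 38 h 1 read was worth 6.33 normalised counts, so that a count of 0 there allowed a level of up to 19.0 (3 counts), against 2.16 in the deepest library and 4.49 in the second shallowest. Intervals and such limits cover counting error only, since amplified reads are not independent molecules.

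The group was scarce. Together the 47 strands took 0.0392% of all counts, and their mean levels ran between 5.01 and 1039 normalised counts, with a median of 19.8. Only 7 strands averaged 100 or more and 24 stayed below 20. By comparison, the 40 strands from miR-1018 to miR-2220 had a median of 80.0, and all 300 strands with a mean raw count of at least 5 had a median of 647. Of the 47 strands, 33 were counted in all 44 libraries, and the sparsest, miR-8199-5p, was counted in 29. The 4 most abundant strands made up 68.2% of the summed level of the group.

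Those 4 strands were miR-4816-3p (1039 normalised counts on average), miR-4813-3p (1036), miR-8196a-3p (393) and miR-4816-5p (369). miR-4816-3p had its lowest level, 361, at 5 h, a median of 1098 over all hours, and its highest level, 1538, at 27 h. It stood below its neighbouring hours in single libraries, with 552 (8 h), 442 (13 h) and 399 normalised counts (45 h). miR-4813-3p was highest at 6 h with 2827, had a median of 743 and was lowest at 39 h with 461. miR-8196a-3p ranged between 167 at 45 h and 564 at 25 h, with a median of 423. miR-4816-5p ranged between 203 at 38 h and 512 at 14 h, with a median of 382. The next strands by mean level were miR-4812-5p (159), miR-8191-5p (137) and miR-5551-5p (131).

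Of the 39 hairpins, 8 gave both strands to the group: miR-4806, miR-4813, miR-4814, miR-4816, miR-8186, miR-8192, miR-8201 and miR-8211. The dominant strand was not always on the same arm. The 5p strand made up 86.8% of the reads of miR-8201 (95% Wilson interval 85.1% to 88.3%), 76.7% of miR-4806 and 70.3% of miR-8186. It made up 15.4% of miR-8192 and 8.00% of miR-4813. In miR-4814, where the 5p share was 45.6% (41.8% to 49.5%), neither strand clearly dominated. A further 23 strands had a partner below the minimum, with mean raw counts between 0 and 4.73 and a median of 0.523. The partners miR-4805-5p, miR-8212-5p, miR-8191-3p, miR-5549-5p and miR-8196b-5p had no count at all. miR-8190-5p (0.0227), miR-8207-5p (0.0227), miR-5546-5p (0.0455), miR-8196a-5p (0.114), miR-8193-3p (0.341), miR-8198-5p (0.477), miR-4809-5p (0.523), miR-5594-5p (0.591) and miR-8199-3p (0.636) averaged less than 1 raw count per library. miR-5551-3p (1.02), miR-8189-5p (1.18), miR-4808-5p (1.48), miR-5547-3p (3.27), miR-4811-5p (3.68), miR-8208-5p (3.98), miR-8210-3p (3.98), miR-8206-5p and miR-4812-3p averaged more. The other 8 strands have a name without an arm and no listed partner.

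The hairpins were placed on the WBcel235 annotation, which is a later build than the one used for counting. Of the 39 hairpins, 13 lay in an intron of a gene on the same strand, 11 between genes, and 3 in an intron of a gene on the opposite strand. Another 4 overlapped an exon on the same strand, which for miR-8198 was that of annotated piRNAs. The remaining 8 had ends that met the ends of an intron within 5 bases, as mirtrons do, and are called mirtron-like here. Their annotated hairpins were 56 to 65 bases long. By chromosome, 10 hairpins were on X, 9 on II, 9 on IV, 6 on III, 4 on I and 1 on V.

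The first question was in which stage each strand was highest. The 44 h were cut into 7 blocks. The first was 5 to 7 h, blocks of 7 h followed from 8 to 14 h up to 36 to 42 h, and 43 to 48 h was the last. Each block between 8 and 35 h thus averages over about 1 molting cycle, while that of 36 to 42 h follows the last larval cycle. Of the 47 strands, 44 differed between blocks (edgeR quasi-likelihood test, adjusted p under 0.05), but so did 96% of the 300 strands tested. The exceptions were miR-8186-3p, miR-4814-5p and miR-8191-5p. The block of 5 to 7 h was the highest for 16 strands, 34.0% of the group, against 29.0% of all strands tested. In time order the following blocks were highest for 5, 2, 6, 6, 5 and 7 strands. The block of 29 to 35 h held the maximum of 12.8% of the group, against 22.3% of all strands tested.

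**Figure D1:**
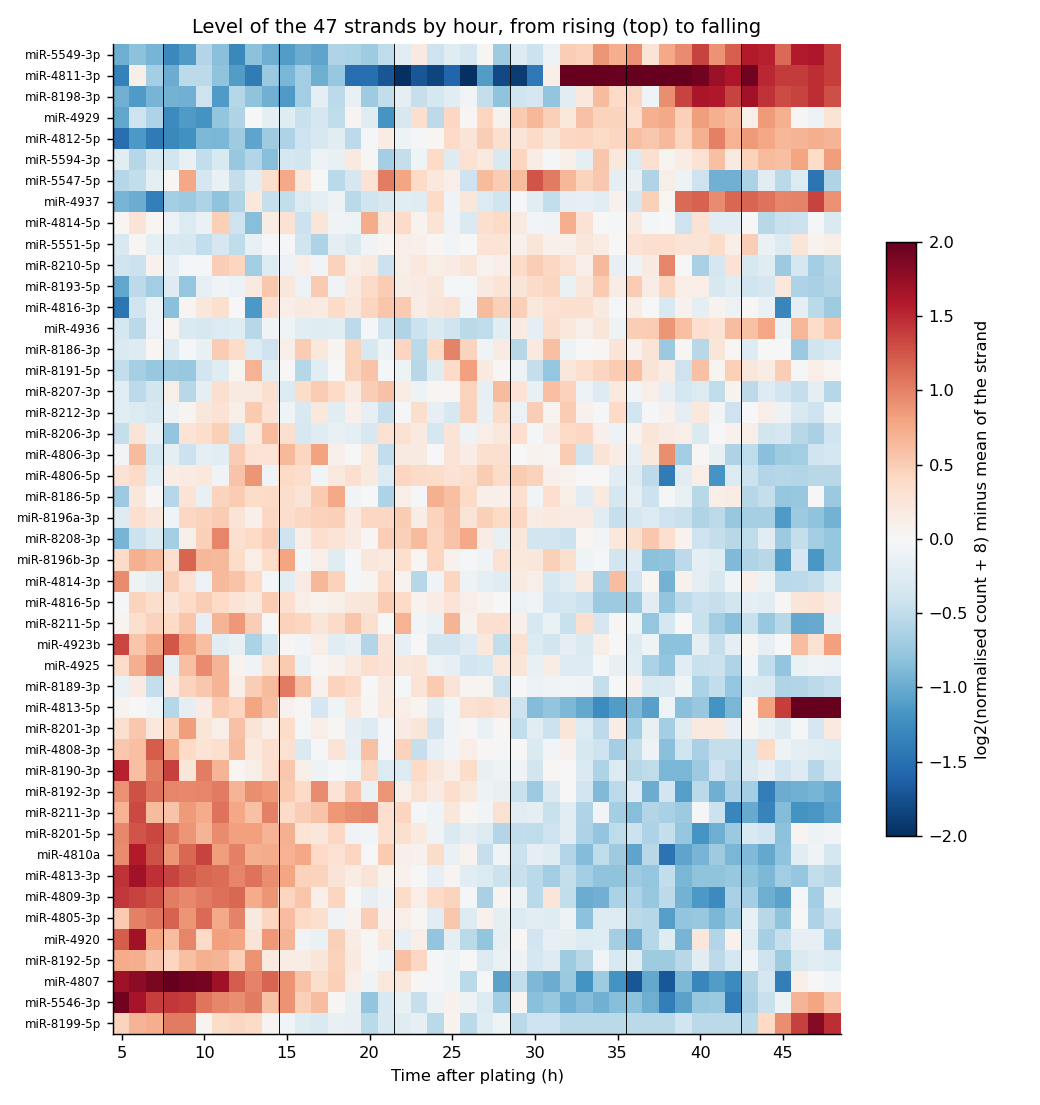
Level of each of the 47 strands (rows) in each of the 44 hourly libraries (columns, time after plating in h). Colour gives log2 of the normalised count plus 8, minus the mean of the strand; rows run by fitted change over 8 to 35 h, with rises at the top, and black lines part the 7 blocks. The bottom rows are darkest red in the first hours, and miR-5546-3p, miR-8199-5p and miR-4813-5p turn red again after 43 h.

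The largest class of changes was a decline through larval life. Over 8 to 35 h, 20 of the 47 strands fell by at least 1 log2 unit and 7 rose by as much (linear term, edgeR, adjusted p under 0.05), in a fit in which 27% of all strands tested fell and 27% rose. Falls thus made up 42.6% of the group and rises 14.9%. Without the 3 strands that could miss the count minimum when 1 block was left out, 17 of 44 fell. The median fitted change was -0.49 log2 units in the group and 0.04 over all strands tested. With TMM, a scaling that sets the bulk of strands equal, the medians were -0.28 and 0.19. Of the 40 strands from miR-1018 to miR-2220, 13 fell and 16 rose, with a median of 0.26. The summed level of the group averaged 3404 normalised counts at 43 to 48 h and 5457 at 5 to 7 h. Most of that difference came from a single strand, since miR-4813-3p alone averaged 540 and 2558 in these blocks. The sum therefore does not show a decline across the group.

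miR-8199-5p, from a hairpin between genes on chromosome II, had the largest fitted fall, -5.58 ± 0.84 log2 units (SE). This strand would miss the count minimum without the block of 5 to 7 h, of 8 to 14 h or of 43 to 48 h. Its early level thus helped to admit it, and its fall is given as a description only. It had a lowest, median and highest level of 0, 0 and 0.732 normalised counts over 29 to 35 h, against 4.02, 7.20 and 15.9 over 8 to 14 h. It had no count in 12 of the 15 libraries from 29 to 43 h, against 15.9 (8 h) and 15.8 normalised counts (9 h). miR-5546-3p, from an intron of arx-1, which encodes an Arp2/3 complex subunit, fell by 3.80 ± 0.34. It had 2.66, 3.49 and 13.5 normalised counts (lowest, median, highest) over 29 to 35 h, against 23.1, 35.0 and 47.6 over 8 to 14 h. It had no count at 38 and 42 h, against 71.7, 57.0 and 46.4 at 5, 6 and 7 h. miR-4813-3p, by far the most abundant of the falling strands, fell by 2.24 ± 0.09. Its lowest, median and highest levels were 497, 543 and 645 over 29 to 35 h. Over 8 to 14 h they were 1677, 1923 and 2249, so these blocks did not overlap. How many of all strands tested had no overlap between these blocks was not counted. The hairpin of miR-4813 overlaps an exon of idhg-1, which encodes a subunit of mitochondrial isocitrate dehydrogenase, on the same strand.

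Both strands of miR-8192, in an intron of flcn-1, the worm folliculin gene, fell. miR-8192-5p changed by -2.63 ± 0.42 and miR-8192-3p by -2.09 ± 0.22. miR-8192-5p had 0, 2.62 and 4.58 normalised counts over 29 to 35 h, against 7.04, 11.8 and 16.5 over 8 to 14 h. miR-8192-3p had a median of 17.7 normalised counts over 29 to 35 h and of 60.1 over 8 to 14 h. For neither strand did the blocks overlap, which was not counted over all strands tested. However, miR-8192-5p would miss the count minimum without the block of 8 to 14 h (mean raw count 4.57). Its fall and this separation are therefore descriptions only. Both strands of miR-8201, in an intron of the linker histone gene hil-2, fell as well, miR-8201-5p by 2.15 ± 0.16 and miR-8201-3p by 1.76 ± 0.44. The fall of miR-8201-3p is a description only, since the strand would miss the minimum without the block of 5 to 7 h or of 8 to 14 h. For miR-8211 the changes were -2.15 ± 0.24 for the 3p and -1.10 ± 0.30 for the 5p strand. The call of miR-8211-5p was lost without the library of 32 h (-0.96) or of 34 h (-0.98). The other falls were those of miR-4805-3p (-2.40), miR-8190-3p (-1.92), miR-4813-5p (-1.42), miR-8189-3p (-1.30), miR-4920 (-2.40) and the strands of Y59E1B.1 given next. The fall of miR-4813-5p was lost with autocorrelated residuals (-0.73, adjusted p = 0.717) and in even hours alone (adjusted p = 0.0514).

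Of the 9 mirtron-like strands, 7 fell and none rose, with a median change of -1.79 log2 units. Over all strands tested 27% fell and 27% rose, and no test compared the genomic contexts. The 12 strands from hairpins between genes had 3 falls and 3 rises. The 17 strands of introns on the same strand that were not mirtron-like had 5 falls and 3 rises. In both contexts the share of falls was near that of all strands tested. The 6 strands from hairpins overlapping an exon on the same strand had 4 falls and 1 rise, with a median change of -1.26. The rise was that of miR-8198-3p, whose hairpin overlaps annotated piRNAs. The 3 strands antisense to an intron had 1 fall and no rise. Most of the mirtron-like strands came from a single gene. Y59E1B.1, annotated as a non-coding RNA on X (1871399 to 1880492), has 34 introns, and 11 of its introns begin and end at the very bases where an annotated microRNA hairpin does. Of the strands described here it holds miR-4807, miR-4808-3p, miR-4809-3p, miR-4810a, miR-4923b and miR-4925, and all 6 fell, where 27% of all strands tested did. These 6 share their source and are not independent of each other. The gene also holds miR-1018 and miR-2220-3p, which are among the older names, and they fell by 2.89 ± 0.17 and 2.58 ± 0.19, which brings the count to 8 falling strands of the 8 tested. This locus was singled out after its values had been seen.

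miR-4807 led the 6, with a change of -3.74 ± 0.21. It had 12.2, 16.8 and 25.0 normalised counts (lowest, median, highest) over 29 to 35 h and 84.3, 142 and 200 over 8 to 14 h. miR-4809-3p changed by -2.26 ± 0.26 and had a median of 12.4 over 29 to 35 h, against 52.9 over 8 to 14 h. miR-4810a changed by -2.23 ± 0.16, with medians of 20.1 and 65.6 in the same blocks. None of these 3 overlapped between the blocks, which adds no separate support, since they were called for their change over the same hours. How common this was among all strands tested was not counted. miR-4808-3p (-1.79 ± 0.37), miR-4925 (-1.25 ± 0.37) and miR-4923b (-1.15 ± 0.54) were scarcer, with means of 6.90, 6.38 and 6.98. miR-4925 had 42 raw counts at 5 to 7 h and 70 at 8 to 14 h. Its early level thus helped to admit it, and its fall is given as a description only. The fall of miR-4923b was at the limit (adjusted p = 0.0488) and was lost when the library of 8 h was left out (-0.64, adjusted p = 0.286). In all, it was lost without any 1 of 17 libraries. Summed over the 6 strands the level averaged 361, 289, 147, 107, 66.8, 40.3 and 80.7 normalised counts in the 7 blocks. The last block thus stood above the one before it.

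**Figure D2:**
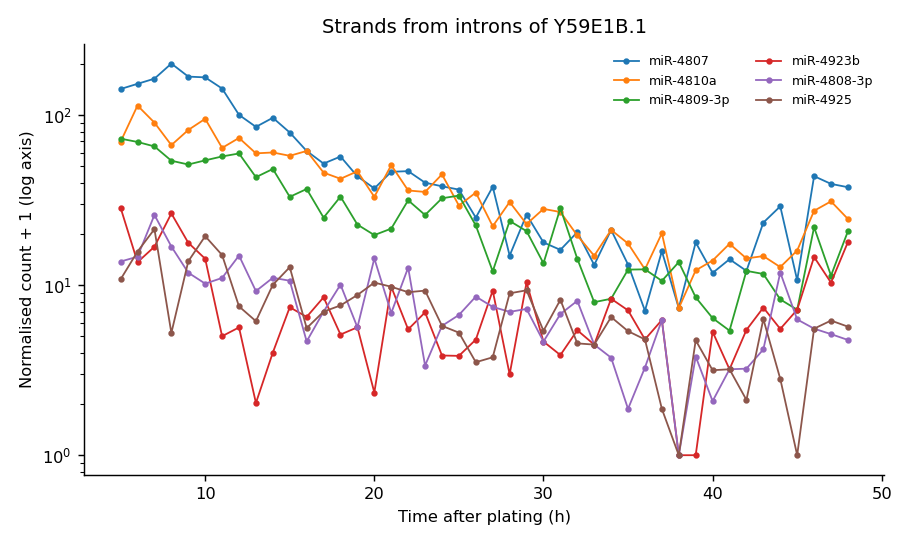
Normalised count plus 1 (log axis) of the 6 strands from introns of Y59E1B.1 against time after plating in h, 1 point per library. miR-4807, miR-4809-3p and miR-4810a run downward until about 40 h, while the scarce miR-4923b has no steady slope after 15 h. miR-4807, the highest at the start, has its peak of 200 at 8 h.

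The other 2 mirtron-like hairpins lay in protein-coding genes. miR-4920, in sph-1, changed by -2.40 ± 0.38, with 2.62, 6.41 and 9.37 normalised counts over 29 to 35 h and 12.3, 21.4 and 25.6 over 8 to 14 h. miR-4816, in T09B4.2, gave the most abundant strand of the group. Neither of its strands passed the size limit: miR-4816-3p had a fitted change of 0.41 ± 0.22 and miR-4816-5p one of -0.91 ± 0.14. miR-4810a, miR-4923b and miR-8196a-3p have close relatives by name (miR-4810b, miR-4923a, miR-8196b), and reads may be shared between such copies, so their levels are uncertain.

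Strands that gained over larval life were fewer. miR-5549-3p had the largest fitted rise, 3.99 ± 0.54 log2 units. It had 6.59, 19.1 and 28.4 normalised counts (lowest, median, highest) over 29 to 35 h, against 0, 2.01 and 5.12 over 8 to 14 h, and climbed on to a median of 50.4 over 43 to 48 h. miR-4812-5p, in an intron of piki-1, a phosphoinositide 3-kinase gene, rose by 1.85 ± 0.14. Its medians were 48.6, 72.2, 112, 173, 189, 228 and 238 in the 7 blocks. Over all hours its lowest level was 44.2 at 5 h, its median 172 and its highest 294 at 41 h. miR-4929 rose by 2.06 ± 0.31, with 31.9, 40.3 and 46.9 over 29 to 35 h and 6.35, 12.0 and 26.7 over 8 to 14 h. miR-5594-3p rose by 1.45 ± 0.34 and miR-5547-5p by 1.07 ± 0.30, but without the library of 30, 31 or 32 h miR-5547-5p changed by only 0.98, 0.96 and 0.99. In the first 3 of these the 2 larval blocks did not overlap, but they too were called for their change over those hours. The share of all strands tested without such overlap was not counted.

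miR-4811-3p, from X between genes, rose in a step. It lay between 7.76 and 41.1 normalised counts over 5 to 20 h and between 1.26 and 12.9 over 21 to 30 h. It then stood at 41.1 at 31 h and 176 at 32 h, and it stayed between 110 and 253 in all 17 libraries of 32 to 48 h. The median over 32 to 48 h was 165, against 5.42 over 21 to 30 h, a 30.4-fold difference with no overlap. These windows were set after the values had been seen, and no test is given for them. Its fitted linear change of 3.18 ± 1.01 (adjusted p = 0.00338) was lost when residuals of neighbouring hours were allowed to correlate (2.91, adjusted p = 0.505).

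miR-8198-3p rose by 2.60 ± 0.60 over larval life and by a further 1.69 ± 0.37 (adjusted p = 0.00031) between the last larval block and the next. It had 8.73, 36.5 and 46.5 normalised counts over 36 to 42 h and 2.16, 7.09 and 19.2 over 29 to 35 h. Its annotated start lies 1 and 3 bases from the starts of the piRNAs 21ur-5348 and 21ur-6991 on the same strand of chromosome IV. Reads that began within 3 bases of a start were counted, so piRNA reads, which arise in the germ line, cannot be told apart from those of miR-8198-3p here.

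**Figure D3:**
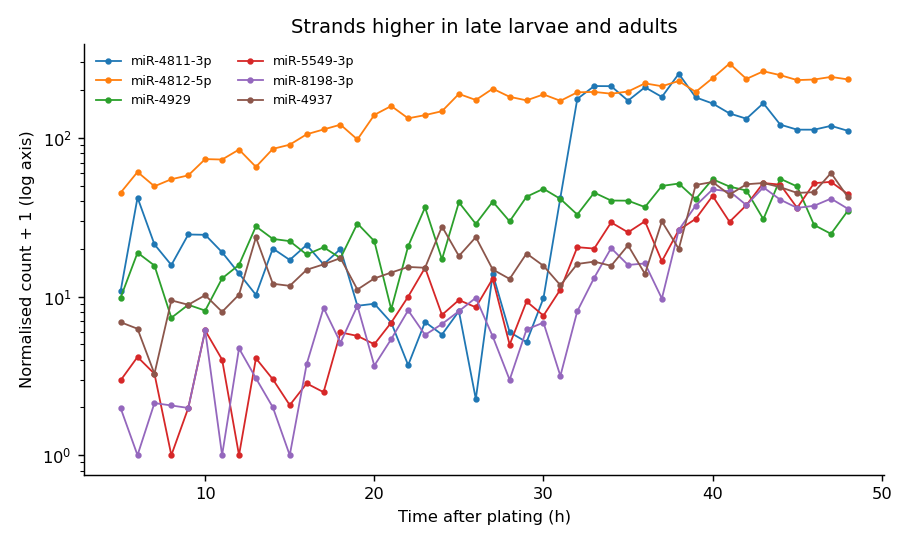
Normalised count plus 1 (log axis) of 6 strands with higher levels in late larvae and adults against time after plating in h, 1 point per library. miR-4811-3p stands at 8.79 at 30 h and 176 at 32 h, while miR-4812-5p climbs steadily and miR-4937 and miR-8198-3p stand higher after 38 h than before.

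A rhythm with the molting cycle was rare. A cosine and a sine of 7 h were fitted with a linear trend to the 28 libraries of 8 to 35 h, and a strand was called rhythmic at an adjusted p under 0.05 with an amplitude, the height of the peak above the trend, of at least 0.5 log2 units. Of the 47 strands, 2 were called (4.26%), miR-8191-5p and miR-5547-5p, against 13.3% of all strands tested, and 5 had an unadjusted p under 0.05. Of the 40 strands from miR-1018 to miR-2220, 1 was called. The median amplitude was 0.12 in the group and 0.15 over all strands tested. The median standard error of an amplitude was 0.12 in the group and 0.11 over all strands, so that a typical amplitude in the group was no larger than its error.

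miR-8191-5p had an amplitude of 0.53 ± 0.07 (SE; adjusted p = 2.12e-05), which is 2.10-fold between trough and peak. Its peaks reached 217 normalised counts (13 h), 199 (20 h) and 237 (26 h). Its low points were 73.9 (9 h), 85.4 (16 h), 86.4 (23 h) and 73.5 (31 h). After 31 h it climbed to 202 at 36 h. The peaks at 13, 20 and 26 h were thus 6 or 7 h apart, while the high at 36 h, outside the fitted window, came later than 7 h after that of 26 h. The fitted peak lay 5.58 h after each multiple of 7 h. The amplitude was close to the limit and dropped to 0.49 without the library of 13 h and to 0.50, just under it, without that of 31 h, while the adjusted p stayed below 0.05. With periods of 6.5, 7.5 and 8 h the amplitude was 0.43, 0.48 and 0.36, and the call was lost. The hairpin lies in an intron of C09B9.85, and its annotated 5p strand is 18 bases long.

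miR-5547-5p had an amplitude of 0.54 ± 0.12 (adjusted p = 0.0081), with high points of 44.4 (9 h), 43.8 (15 h), 54.2 (21 h) and 65.2 normalised counts (30 h). It was down to 13.9 (12 h), 13.2 (18 h) and 15.1 (26 h), and its fitted peak lay 1.31 h after each multiple of 7 h. Its peaks were thus 6, 6 and 9 h apart. Its call was lost without the library of 9 or 30 h. In even hours alone the adjusted p was 0.0585 and in odd hours alone 0.586. miR-4923b and miR-8186-3p had fitted amplitudes of 0.55 ± 0.23 and 0.53 ± 0.21, but with adjusted p-values of 0.214 and 0.18 they were not called.

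**Figure D4:**
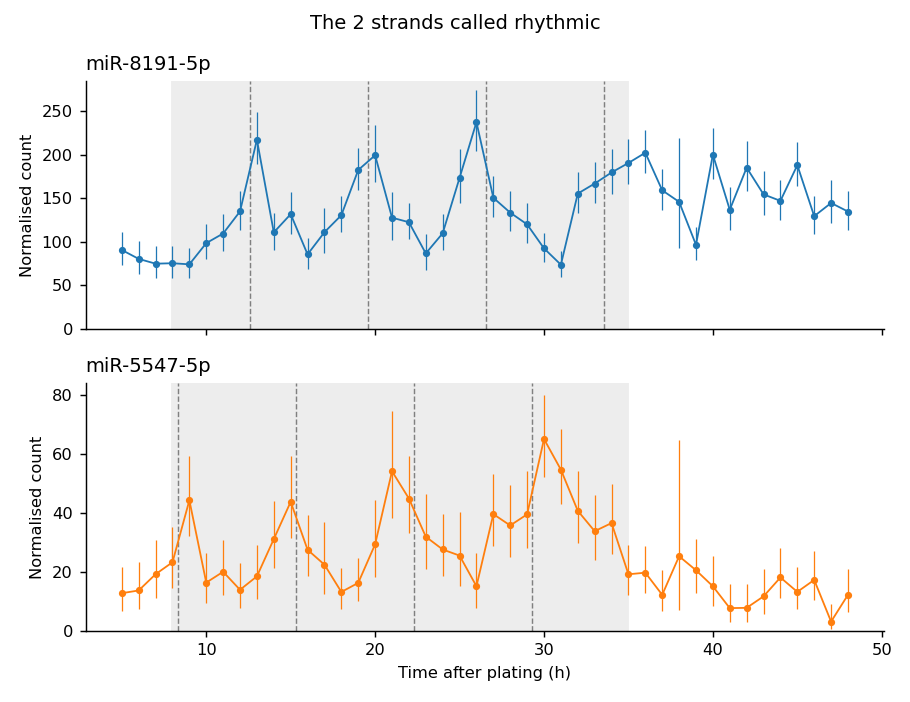
Normalised counts of miR-8191-5p (top) and miR-5547-5p (bottom) against time after plating in h, with 95% Poisson intervals as bars. The grey band is the fitted window of 8 to 35 h and dashed lines are the fitted peaks; miR-8191-5p rises to 217, 199 and 237 at 13, 20 and 26 h, near those lines.

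The earliest hours sampled were compared next, as 8 to 14 h over 5 to 7 h. Only miR-8208-3p and miR-4937 rose by at least 1 log2 unit at an adjusted p under 0.05, against 10% of all strands tested, and none fell by as much, against 1%. The fitted difference of miR-8198-3p, 1.36 ± 1.33 (adjusted p = 0.433), was not called. In edgeR 10 strands had an unadjusted p under 0.05 in this contrast. miR-8208-3p, antisense to an intron of T11G6.2, had 8.47, 26.7 and 44.1 normalised counts (lowest, median, highest) over 8 to 14 h, against 5.90, 11.6 and 13.6 at 5 to 7 h, a difference of 1.34 ± 0.37 (adjusted p = 0.00913). miR-4937 had 7.02, 9.21 and 22.6, against 2.26, 5.27 and 5.90, a difference of 1.23 ± 0.43. Without the library of 5 h neither was called, with an adjusted p of 0.112 for miR-8208-3p and 0.0517 for miR-4937. miR-4937 also lost its call without the library of 6, 7 or 13 h. For scale, lin-4-5p, a regulator of early larval fates, averaged 27607 normalised counts over 8 to 14 h and 991 at 5 to 7 h.

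At the transition out of the last larval cycle, 36 to 42 h over 29 to 35 h, 2 of the 47 strands rose (6.33% of all strands tested did) and 4 fell (8% did). In this contrast the median over all strands tested was -0.26 log2 units with total-count scaling and -0.08 with TMM. miR-8198-3p and miR-4937 were the strands that rose. miR-4937 had 12.9, 42.9 and 51.9 normalised counts over 36 to 42 h, against 10.8, 15.1 and 20.1 over 29 to 35 h, a difference of 1.28 ± 0.24 or 1.53 above the median of all strands. miR-5547-5p fell most, by 1.50 ± 0.32, with 7.71, 15.1 and 25.3 over 36 to 42 h and 19.2, 39.6 and 65.2 over 29 to 35 h. The others were miR-8190-3p (-1.36 ± 0.49), miR-4805-3p (-1.24 ± 0.39) and miR-4925 (-1.14 ± 0.47), all at medians of 2.16 to 2.23 normalised counts over 36 to 42 h, against 4.36 to 6.41 over 29 to 35 h. For each of these 3 the blocks overlapped, with highest levels of 3.30 (miR-8190-3p), 3.80 (miR-4805-3p) and 3.80 (miR-4925) over 36 to 42 h and lowest levels of 1.83, 1.74 and 3.47 over 29 to 35 h. The call of miR-4925 was lost without any 1 of the libraries of 29, 31, 37 or 42 h (adjusted p 0.0643 to 0.0696).

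The last comparison was 43 to 48 h over 36 to 42 h, when adults begin to carry embryos. Of the 47 strands, 6 rose by at least 1 log2 unit (10.3% of all strands tested did) and 2 fell (3.67% did). Over all strands tested the median difference was -0.28, and with TMM it was -0.02. The 6 that rose were also called as falling over 8 to 35 h, as were 15 of the 31 strands (48.4%) that rose here among all tested. Over the same contrast all 8 of 8 miR-35 family guides, microRNAs of embryos and the germ line, rose by 1.65 to 3.72. Their summed level was 672838 to 1398836 normalised counts over 43 to 48 h and 51847 to 559877 over 36 to 42 h. When library totals were taken without this family, all 6 rises kept their call. The part of embryos in the late rises was not tested.

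miR-4813-5p had the clearest late rise, 2.94 ± 0.27 log2 units. It stood at 69.2, 125, 190, 379, 405 and 401 normalised counts from 43 to 48 h in order, against 25.3, 32.7 and 63.3 (lowest, median, highest) over 36 to 42 h, and did not overlap with them. miR-8199-5p, given as a description only, had 0, 7.25, 14.1, 21.8, 33.2 and 24.5 in the same hours. In raw counts it had 106 over 43 to 48 h and 1 over 36 to 42 h, a depth-corrected ratio of 108 (95% interval 19.0 to 4305). Over the other 38 libraries it had 117 reads, a mean of 3.08, so it would miss the minimum without the hours of its late rise. Without it, 5 of 46 strands rose. miR-5546-3p rose by 2.53 ± 0.50, with 5.32, 17.0 and 28.0 over 43 to 48 h and 0, 2.62 and 4.40 over 36 to 42 h.

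miR-4807 of the Y59E1B.1 locus rose by 1.32 ± 0.29, with 9.70, 32.4 and 42.8 normalised counts over 43 to 48 h and 6.08, 11.1 and 16.8 over 36 to 42 h. Its neighbour miR-4923b rose by 1.52 ± 0.54, with 4.53, 7.86 and 16.9 over 43 to 48 h and 0, 3.80 and 5.24 over 36 to 42 h. miR-4808-3p rose by 1.0 ± 0.43 (adjusted p = 0.0426), right at the size limit. Measured from the median of all strands, the rises were 1.59 for miR-4807, 1.79 for miR-4923b and 1.28 for miR-4808-3p. The call of miR-4923b was lost without the library of 48 h (adjusted p = 0.0599), and that of miR-4808-3p without any 1 of 9 libraries, most of all that of 44 h (0.66, adjusted p = 0.224). The strands that fell were miR-8211-3p, by 1.37 ± 0.38, and miR-4806-3p, by 1.10 ± 0.42. miR-8211-3p had 0.906, 2.45 and 4.41 normalised counts over 43 to 48 h, against 1.11, 6.33 and 14.0 over 36 to 42 h. miR-4806-3p had 1.81, 3.49 and 5.64 over 43 to 48 h, against 2.81, 7.71 and 25.3 over 36 to 42 h. The value of 25.3 was just 4 raw counts in the shallow library of 38 h. With TMM scaling miR-4806-3p was at -0.84 and not called (adjusted p = 0.124), and it was also lost without the library of 37, 38, 44, 45 or 46 h.

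**Figure D5:**
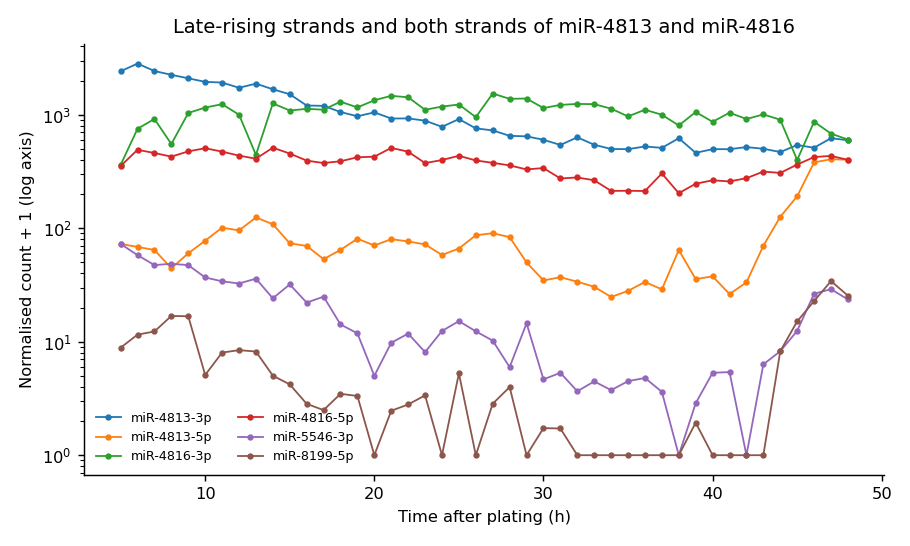
Normalised count plus 1 (log axis) of miR-4813 and miR-4816 (both strands), miR-5546-3p and miR-8199-5p against time after plating in h, 1 point per library. miR-4813-5p climbs to 405 at 47 h while miR-4813-3p stays between 468 and 621 from 43 h on.

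The strand ratio shifted late in miR-4813 and miR-4816. miR-4813-3p differed by 0.06 ± 0.10 log2 units between the last blocks (edgeR adjusted p = 0.643), with 468, 526 and 621 normalised counts over 43 to 48 h and 461, 510 and 621 over 36 to 42 h, while its 5p partner rose. The 5p share of miR-4813 reads was 2.58%, 4.31%, 5.84%, 8.60%, 5.51%, 6.03% and 32.7% in the 7 blocks, the last with a 95% Wilson interval of 31.5% to 34.0%. For miR-4816 the 5p share was 39.4%, 32.5%, 25.7%, 23.9%, 18.7%, 20.4% and 33.6%. The log2 ratio of 5p to 3p in miR-4813 averaged -1.31 over 43 to 48 h and -3.87 over 36 to 42 h, a difference of 2.56. In miR-4816 it averaged -0.94 and -1.95, a difference of 1.01. In a two-sided exact permutation test over hours, run after these values had been seen, both had p = 0.000583, the smallest the test can give, and 0.00751 after Benjamini-Hochberg adjustment over 116 hairpins with both strands tested. The test treats hours as exchangeable, which consecutive hours of 1 time course are not. A smooth drift across these hours can also give the smallest p, so the p-values are a description only. Of the 116 hairpins, 32 were called, 15 of them with a gain of the 5p strand, so the share called in the group was near that of all. The other 6 hairpins of the group were not called, with adjusted p-values of 0.264 to 0.955.

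The remaining 19 strands were neither rhythmic nor changed by 1 log2 unit over 8 to 35 h, with fitted changes between -0.91 and 0.75, although 7 of them had an adjusted p under 0.05 for the linear term. Besides both strands of miR-4816, the most abundant were miR-8196a-3p and miR-5551-5p. miR-8196a-3p, within the long non-coding RNA linc-154, averaged 210 normalised counts over 43 to 48 h and 498 over 22 to 28 h. miR-5551-5p stayed between 80.9 and 184, with a change of 0.68 ± 0.11. miR-4936 had a mean of 88.7 over 36 to 42 h and 41.9 over 22 to 28 h. miR-8196b-3p, antisense to an intron of the peroxin gene prx-1, averaged 7.10 at 43 to 48 h and 29.3 at 5 to 7 h.

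The others averaged below 40 normalised counts, and the ratio of highest to lowest block mean was 1.58 for miR-8206-3p, 1.59 for miR-8212-3p, 2.07 for miR-8210-5p, 2.30 for miR-4806-5p and 2.56 for miR-8193-5p. It was 2.11 for miR-4814-5p and 2.48 for miR-4814-3p, and 2.91 for miR-8207-3p, which lies in an intron of magi-1. miR-8186-5p (2.71) and miR-8186-3p (2.77) come from a pair of annotated hairpins that overlap on opposite strands of chromosome II (18638 to 18698), so reads may be shared between them.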

How the data were processed

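Small RNA libraries (Illumina TruSeq) of N2 worms were sequenced hourly, 1 per hour. Per the study's methods, the authors trimmed and aligned reads with QuasR and Bowtie to ce10, lifted miRBase annotation to that build, and deposited raw counts of same-strand reads starting within 3 bp of a mature 5′ end. A deposited log2 table, which the authors had computed from those counts after scaling by library size and adding 8, equalled the counts to within its decimals and entered no test.

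Strands with a mean raw count of at least 5 (300 strands) were tested with edgeR 4.0.16 (R 4.3.3, quasi-likelihood, offsets from total counts, Benjamini-Hochberg over all 300). The rhythm model held an intercept, a linear term and a 7 h cosine and sine over 8 to 35 h, and the block model held 7 blocks over 44 libraries. Changes called had an adjusted p under 0.05 and at least 1 log2 unit. Total counts per library ran from 1669246 to 14672735. Scripts were tested on simulated data. Alternatives were TMM and DESeq2 1.42.0 size factors, the DESeq2 test, limma 3.58.1 with pseudocounts of 8 or 1, and other filters, periods, windows and blocks. Autocorrelated residuals (nlme 3.1.168) were fitted to log2 levels with a pseudocount of 8. Further alternatives were a spline trend, totals without the miR-35 family, even or odd hours, and each library left out. Python 3.11.15, pandas 2.3.3, SciPy 1.17.1, NumPy 2.4.6 and matplotlib 3.10.9 served for the rest. Hairpin positions are those of WBcel235, and none were converted.

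The members and lists were chosen with earlier results of these data known. Every strand of the group is named, with levels by hour or by block for the 6 most abundant, those called rhythmic and the 5 largest called changes per contrast and direction. The strand-ratio test, the description of Y59E1B.1 and the windows for miR-4811-3p were added after seeing the data.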

Additional observations from a re-analysis of the deposited data

How the results depend on the processing

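No paired analysis was possible because each hour had 1 library and no replicate numbers. No call reversed its direction under any alternative. The rhythm count of 2 was 1 with TMM factors, periods of 7.5 or 8 h, the window of 15 to 35 h, autocorrelated residuals, and even or odd hours alone, and 0 with limma and a pseudocount of 8 or with a period of 6.5 h. The 7 rises were 4 with limma and a pseudocount of 8, 3 with autocorrelated residuals and 12 with no minimum change. The 20 falls were 13 with limma and a pseudocount of 8 and with a mean count of at least 10, which removes strands from the test, and 12 with autocorrelated residuals. For 8 to 14 h over 5 to 7 h, the count of 2 was 1 with DESeq2 size factors or the DESeq2 test, 0 with limma and a pseudocount of 8, and 4 with blocks starting 1 h later. For 36 to 42 h over 29 to 35 h, the 6 were 3 with limma and a pseudocount of 8 or blocks starting 1 h later. For 43 to 48 h over 36 to 42 h, the 8 were 3 with limma and a pseudocount of 8 and 4 with a mean count of at least 10. The pseudocount of 8 understates changes of scarce strands by construction, and the fit with autocorrelated residuals used it too. For the other settings the cause was not tested. With each library left out in turn, the counts were 1 to 2 rhythmic, 6 to 8 rising, 19 to 21 falling and 43 to 46 differing between blocks, and 0 to 4, 5 to 7 and 6 to 10 in the 3 contrasts in time order. Of 45 single-strand results, 20 kept their call in every alternative in which they were tested, among them 15 changes over 8 to 35 h, the late rises of miR-4813-5p and miR-5546-3p, and neither rhythm. Of the 12 linear calls lost with autocorrelated residuals, 7 kept an adjusted p under 0.05 but not the size of 1 log2 unit. These 7 also fell short of that size with limma and a pseudocount of 8. For them the effects of pseudocount and autocorrelation cannot be told apart. Depth limits all strands averaging below about 20 normalised counts, most of all at 38 h.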
